A study of Mus musculus with 2 samples.

Results

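The 41 mouse collagen genes, chosen by name from the GENCODE models of assembly mm10, were described among 21911 protein-coding genes in maps of open chromatin from newborn lung. They were split by the kind of collagen they encode into 8 fibrillar, 8 basement membrane, 5 network, 6 FACIT (fibril-associated), 4 transmembrane and 7 cartilage genes, with 3 others. DNase-seq had been made from whole lung of 0 day old mice of the B6NCrl strain, in 1 group of 2 biological replicates. Both biosamples carry the same donor entry, their sex was not collected, and the labels do not say whether they are different animals or pools. The group had no treatment, altered genotype or second tissue to be compared with, so values are given for each replicate and no test was made.

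Collagens are triple helical proteins that give the extracellular matrix its strength. Fibrillar collagens form the fibres of the airway wall, vessels and alveolar septa, while type IV collagen forms the sheet on which epithelium and endothelium rest. Fibroblasts, myofibroblasts, smooth muscle, endothelium and epithelium each make some of them, and the cartilage collagens are made by chondrocytes. DNase I cuts DNA where it is free of nucleosomes, and clusters of cuts are called as peaks at active or poised promoters and enhancers. In whole tissue, a site open in few cells and a site weakly open in many cells cannot be told apart.

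A promoter site was called shared where peaks of both replicates overlapped by at least 1 bp and lay no more than 500 bp from a transcription start site (TSS) annotated for the gene. Each deposited peak is 150 bp wide and carries a score set by the authors, from 2 to 150 in replicate 1 and from 1 to 148 in replicate 2. What the score measures and the depth of either library are not given in the sources used here. Scores therefore rank sites within a replicate, and the percentile of a site is its rank among the 32270 shared promoter sites of the genome in that replicate. Replicate 1 had 276480 peaks and replicate 2 had 188498, and 161051 merged sites held peaks of both.

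The promoter letters of the strongest gene, by mean percentile, of 5 classes are shown because their bases differ widely in G+C and CpG content. They are the bases just upstream of the RefSeq start on build GRCm38.p6, written 5′ to 3′ on the strand of the gene and cut before any protein-coding exon. Of the 41 genes, 32 matched the RefSeq promoter table and Col1a1, Col2a1, Col4a3, Col5a2, Col9a3, Col12a1, Col14a1, Col22a1 and Col26a1 did not. Capitals mark the TATA box TATAAA, the NF-Y motif CCAAT, the Sp1 core GGGCGG and the Krüppel-like factor motif CACCC on either strand, so that their reverse complements are in capitals too. The stretches are chr2:27886275-27886424 (plus strand) for fibrillar Col5a1, chr10:76726169-76726294 (minus) for network Col6a1, chr4:130047690-130047839 (plus) for FACIT Col16a1, chr11:51289770-51289919 (plus) for transmembrane Col23a1 and chr3:114030390-114030539 (plus) for cartilage Col11a1.
Col5a1: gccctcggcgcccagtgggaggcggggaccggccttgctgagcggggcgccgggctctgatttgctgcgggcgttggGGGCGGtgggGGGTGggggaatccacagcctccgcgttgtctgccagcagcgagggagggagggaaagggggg
Col6a1: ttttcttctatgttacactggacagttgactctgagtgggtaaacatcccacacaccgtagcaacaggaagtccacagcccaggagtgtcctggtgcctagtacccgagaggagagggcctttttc
Col16a1: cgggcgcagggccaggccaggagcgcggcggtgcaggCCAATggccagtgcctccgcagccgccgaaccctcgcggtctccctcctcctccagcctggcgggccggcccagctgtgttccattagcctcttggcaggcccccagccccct
Col23a1: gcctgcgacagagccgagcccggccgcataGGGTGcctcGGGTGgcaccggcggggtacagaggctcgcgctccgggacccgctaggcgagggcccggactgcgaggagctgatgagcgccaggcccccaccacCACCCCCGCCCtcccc
Col11a1: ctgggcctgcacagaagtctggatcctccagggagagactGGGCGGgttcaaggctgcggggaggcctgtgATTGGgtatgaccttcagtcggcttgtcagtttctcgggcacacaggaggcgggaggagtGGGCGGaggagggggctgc
The Col23a1 stretch is 76.7% G or C and holds 16 CpG dinucleotides, with 3 CACCC matches and 1 GGGCGG match, the last of which adjoins a CACCC. The Col5a1 and Col16a1 stretches are each 74.7% G or C, with 13 and 12 CpGs. By contrast the Col6a1 stretch is 51.6% G or C, with 2 CpGs and none of the 4 motifs. The Col11a1 stretch holds 2 GGGCGG matches and an inverted CCAAT. These stretches are set by the RefSeq start and are not the open sites themselves. The Col23a1 site (chr11:51289576-51289765) lies wholly upstream of its stretch, and its central 150 bp held 6 CpGs, a CACCC and no GGGCGG. In the central 150 bp of their sites, Col6a1 and Col11a1 held a CACCC, and Col16a1 a GGGCGG but no CCAAT.

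The 6 type IV genes of the basement membrane class form 3 head-to-head pairs, in which 2 genes start close together on opposite strands, and the letters between their starts are shown because a single open site can serve both genes. Col4a1 and Col4a2 overlap by 22 bases at their 5′ ends (chr8:11312805-11312826, plus strand), which lie inside the first exon of each. The 71 bases between Col4a4 and Col4a3 are chr1:82586850-82586920 (plus strand, Col4a4 to the left). Col4a5 (chrX:141475235-141475384, plus) and Col4a6 (chrX:141474077-141474226, minus) start 1309 bp apart, and their own upstream bases are given. Capitals mark the same motifs.
Col4a1/Col4a2: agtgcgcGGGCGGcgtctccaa
Col4a4/Col4a3: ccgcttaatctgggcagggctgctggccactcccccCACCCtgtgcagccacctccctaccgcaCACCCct
Col4a5: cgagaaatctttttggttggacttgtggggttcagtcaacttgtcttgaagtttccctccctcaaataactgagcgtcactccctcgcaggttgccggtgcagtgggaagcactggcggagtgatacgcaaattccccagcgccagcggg
Col4a6: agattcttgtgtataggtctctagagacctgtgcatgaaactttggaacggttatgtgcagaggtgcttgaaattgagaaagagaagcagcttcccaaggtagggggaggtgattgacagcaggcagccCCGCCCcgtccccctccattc
The Col4a1/Col4a2 overlap holds 4 CpGs and a GGGCGG within 22 bases. The Col4a4/Col4a3 stretch holds 2 CpGs and 2 CACCC matches, the Col4a6 stretch 1 GGGCGG match and the Col4a5 stretch none of these motifs. The open site of Col4a5 reaches past the start, and its central 150 bp held a GGGCGG. In the central 150 bp of the peaks, CACCC was found in 54.4% of the 57 distinct shared promoter sites of collagen genes and in 40.3% of the 32270 of the genome. GGGCGG was in 33.3% of the collagen sites and 38.5% of all, CCAAT in 21.1% of the collagen sites and 20.4% of all, and TATAAA in 3.51% of the collagen sites and 2.99% of all. Counting only the strongest site of each collagen gene, 31 distinct sites, GGGCGG was in 45.2%, CACCC in 61.3%, CCAAT in 19.4% and TATAAA in 3.23%. Collagen promoter sites were 59.3% G or C and all promoter sites 60.6%. A match of letters describes the window and says nothing about which factor was bound.

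Of the 41 collagen genes, 33 (80.5%) had a shared promoter site, against 68.5% of the 21911 protein-coding genes. Replicate 1 had a promoter peak at 36 collagen genes and replicate 2 at 33, where the shares of all protein-coding genes were 72.3% and 69.2%. Genome-wide, promoters with more CpGs were more often open, and genes in the same CpG deciles as the 41 had a shared site in 73%, or 29.9 genes of 41. Around the 5′ end alone, again 500 bp to either side, 26 collagen genes (63.4%) had a site, against 62.9% of all genes. The share of open collagen promoters as a whole thus lay near the background, and the classes within it are described one by one. All 8 fibrillar, all 8 basement membrane and all 4 transmembrane genes had a shared promoter site, as did 4 of 5 network, 5 of 6 FACIT and 2 of 3 other genes. The CpG decile shares were 64.6% for fibrillar, 87.7% for basement membrane and 76.2% for transmembrane genes. They were 70.1% for network, 74.9% for FACIT and 59.1% for the other genes. In the basement membrane class Col4a1 and Col4a2 have a site in common, as do Col4a3 and Col4a4. Of the 7 cartilage genes, 2 had a shared promoter site, where the CpG deciles of those 7 had a share of 70.1%, or 4.9 genes of 7. Outside the cartilage class the count was 31 of 34 (91.2%), beside a decile share of 73.5%. Around the 5′ end alone it was 25 of these 34 and 1 of the 7 cartilage genes, where the share of all genes was 62.9%. Part of the higher count outside the cartilage class thus comes from inner starts.

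**Figure D1:**
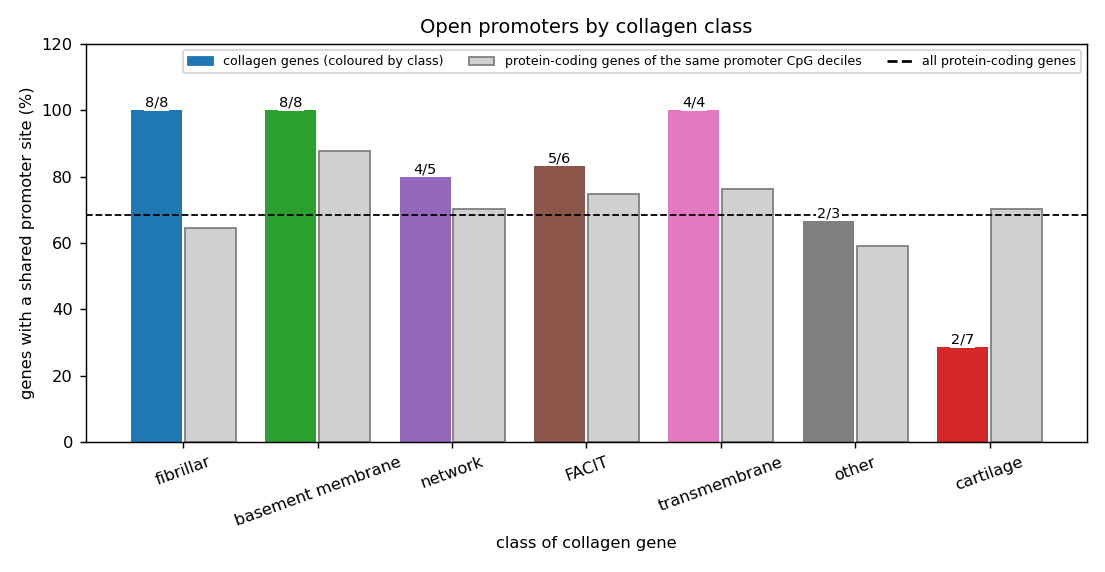
Percentage of genes with a promoter site shared by both replicates, for each class of collagen genes (coloured bars, with the count above) and for protein-coding genes of the same CpG deciles (grey bars), with the dashed line at the 68.5% of all protein-coding genes. The cartilage class is the only one whose coloured bar, at 2 of 7 genes, stands below its grey bar.

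The open collagen promoters were mostly of middling strength. The strongest shared promoter site had a median score of 93 in replicate 1 and 61 in replicate 2 over the 33 collagen genes, against 121 and 101 over the 15010 protein-coding genes with one. As percentiles these were 50.8 and 43.1 for collagen genes, against 75.5 and 76 for all genes. The collagen genes had a median of 34 CpGs around the 5′ end and all protein-coding genes 41. Compared with genes of their own CpG decile, 23 of the 33 lay below the decile median in both replicates (69.7%), where 44.8% of all genes with a shared site did. The genes above that median included Col1a1, Col1a2, Col5a2 and Col6a1, whose 5′ ends have few CpGs. The decile is set at the 5′ end, whereas at 11 of the 33 genes the strongest site lay over 500 bp from it. This was so at 18% of all genes with a shared site. The 33 genes hold 31 distinct strongest sites, since Col4a1 and Col4a2 have theirs in common, as do Col4a3 and Col4a4.

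**Figure D2:**
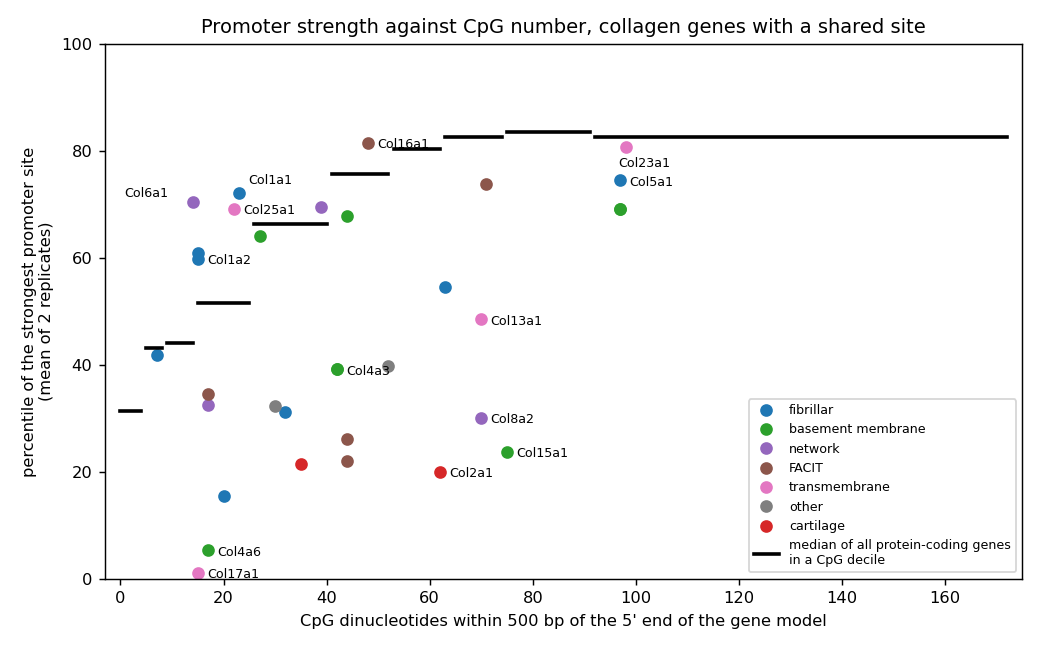
Percentile of the strongest shared promoter site (mean of 2 replicates) against the number of CpGs in the 500 bp to either side of the 5′ end for the 33 collagen genes with such a site, coloured by class, with the black bars at the median of all protein-coding genes in each CpG decile. Most points lie below the bars, and Col1a1, Col1a2, Col6a1 and Col25a1 lie above them at 14 to 23 CpGs.

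Among the fibrillar genes, Col5a1, whose product sets the diameter of collagen fibrils, had the strongest promoter site, with scores of 121 in replicate 1 and 98 in replicate 2 at 95 bp upstream of the start. Col1a1, which encodes the more abundant chain of type I collagen, had 118 and 96, and Col5a2 had 105 and 82. The Col1a1 maximum lay 926 bp inside the gene, in an intron, and the site at the start itself scored 106 and 73. Col1a2, the partner of Col1a1 in type I collagen, had no shared site at the 5′ end of its GENCODE model, where replicate 1 alone had a peak of score 33. Its site, with 105 and 79, lay 77 bp from a second protein-coding start 679 bp further in. Col3a1, the fibre of vessel walls and septa, had 81 and 61. The lowest of the class by their strongest site were Col5a3 with 62 and 57 and Col24a1 with 52 and 38. Col27a1 had 96 and 75 at a start 20.3 kb inside the gene, 90 and 79 at the protein-coding start and 58 and 57 at the outermost one. In each replicate all fibrillar genes but Col24a1 scored above every cartilage gene.

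**Figure D3:**
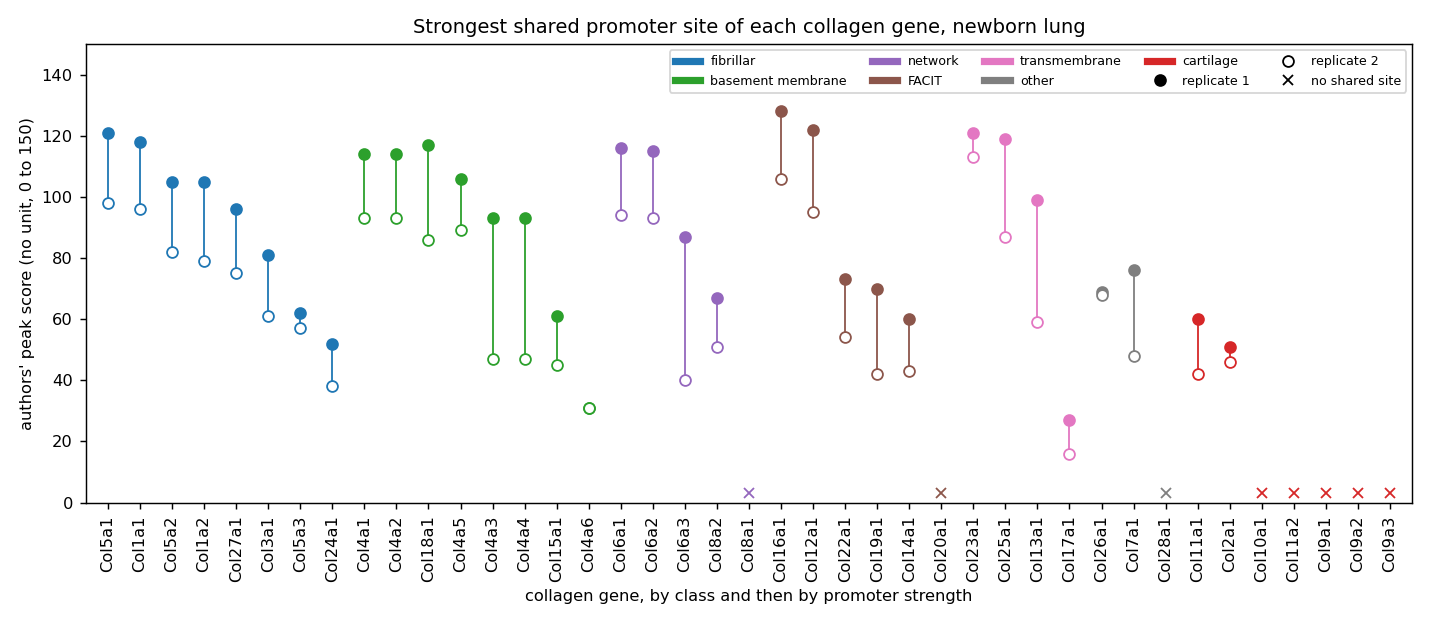
Authors' score of the strongest shared promoter site of each of the 41 collagen genes in replicate 1 (filled) and replicate 2 (open), ordered by class and then by strength, with a cross for genes without a shared site. The highest scores are 128 in replicate 1, at Col16a1, and 113 in replicate 2, at Col23a1, the lowest are 27 and 16 at Col17a1, and 5 of the 8 crosses are cartilage genes. At Col4a6 the symbols coincide.

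Col4a1 and Col4a2, the chains found in every basement membrane, shared a site of scores 114 and 93 (chr8:11312736-11312885), the highest of the class by mean percentile and in replicate 2. Their 5′ ends lie 21 bp apart and the site covers both, so its scores belong to both genes alike. Col4a3 and Col4a4, chains of the networks of the glomerulus and of the alveolar wall, start 72 bp apart and likewise shared a site, with 93 in replicate 1 and 47 in replicate 2. The third pair was unequal. Col4a5 had 106 and 89, whereas Col4a6, whose chain occurs around smooth muscle, had 31 and 31, and no site was common to them. All 3 pairs were thus open in both replicates, and the Col4a6 end was weak beside the Col4a5 end in each.

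Col18a1 and Col15a1 encode the multiplexins of vascular and epithelial basement membranes, and endostatin is cut from the Col18a1 product. Col18a1 had 5 separate shared promoter sites, the strongest, with 117 (the highest of the class in replicate 1) and 86, in an intron beside protein-coding starts 52.6 and 52.8 kb inside the gene. A further start 77.1 kb in had a site of 110 and 59, and the outermost start had 74 and 50. Col15a1 showed a weaker form of the same layout, with 61 and 45 at a protein-coding start 95.6 kb in and only a replicate 1 peak, of score 52, at the 5′ end. The strongest inner start of both genes thus scored above the outermost in each replicate.

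The network genes were led by Col6a1 and Col6a2, chains of the beaded filaments around cells, with 116 and 94 at Col6a1 and 115 and 93 at Col6a2. These genes lie 85161 bp apart and the sites are separate, yet their scores were within 1 point in each replicate. Col6a3, the third chain of the filament, had 87 in replicate 1 and 40 in replicate 2. Col8a2, whose chain lies in the vessel wall and under the corneal endothelium, had 67 and 51. Col8a1, its partner, had no shared site: replicate 1 had a peak of score 28 and the nearest replicate 2 peak, of score 22, lay 613 bp from the start.

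FACIT collagens sit on the surface of fibrils. Col16a1 had the highest replicate 1 score and the highest mean percentile (81.5, against 80.7 at Col23a1) of the 41 genes, with 128 and 106 at 30 bp upstream of its start. That site also lies within 500 bp of a start of Gm12963. Col12a1, which coats type I fibrils under load, had 122 and 95, and its hotspot was 3399 bp wide in replicate 1 and 892 bp in replicate 2. Col22a1, known from the muscle-tendon junction, had 73 and 54, and Col14a1 had 60 and 43. Col19a1 had 70 and 42 at a processed transcript start 135 kb inside the gene, and no shared site at its 5′ end. Col20a1 had none, and its nearest peaks lay 3185 bp (score 44, replicate 1) and 10075 bp (score 64, replicate 2) from the start. Col16a1 and Col12a1 stood well above the other FACIT genes in both replicates.

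Of the transmembrane genes, Col23a1 had 121 and 113 at 250 bp upstream of its start, the highest replicate 2 score among the collagen genes. Col25a1, a gene best known from neurons, had 119 and 87 at the start used by its protein-coding transcripts, 49.4 kb inside a model whose outermost transcript is non-coding. Col13a1 had 99 and 59 at a start 113 kb in and 91 and 52 at its 5′ end. Col17a1, the hemidesmosome collagen that anchors basal epithelium, had the weakest site of all 33, with 27 and 16 near a processed transcript start 42.5 kb in, and none at its protein-coding start. In the last group, Col7a1, the anchoring fibril of skin, had 76 and 48, and Col26a1 had 69 and 68 beside a retained-intron transcript 128 kb in. Col28a1 had no shared promoter site, a replicate 1 peak of 38 near an inner start, and peaks of 48 and 52 at 3587 bp from its 5′ end.

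Altogether 11 of the 33 collagen genes (33.3%) had their strongest promoter site over 500 bp from the 5′ end, against 18% of all genes with a shared site. Some rest on non-coding transcripts alone: with starts of protein-coding transcripts alone, Col2a1, Col17a1, Col19a1 and Col26a1 have no shared site, the count is 29 of 41 (70.7%), and that of all genes is 67.1%. Multiple promoter sites were found at 16 of the 41 collagen genes, or 39%, and at 40.6% of all protein-coding genes.

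The cartilage class had the lowest share of open promoters of the 7 classes and, over its 2 genes with a shared site, the lowest median scores, 55.5 and 44. Col11a1, a minor chain of cartilage fibrils that other mesenchyme also makes, had scores of 60 and 42 at 120 bp upstream of its start. Col2a1, the main fibril of cartilage, had none at its 5′ end, although this end has 62 CpGs and 94.2% of the genes in its CpG decile had a shared site. It counted as open through a site of 51 and 46 within 500 bp of a processed transcript 2.81 kb inside the gene. Col11a2 had a replicate 1 peak of score 49 at 307 bp from its start, whereas the nearest replicate 2 peak, of score 27, was 1673 bp away. Col9a1, Col9a2 and Col9a3, the chains of the collagen on the surface of type II fibrils, had no promoter peak in either replicate. Their nearest peaks scored 43 and 25 at 2440 and 2460 bp for Col9a1, 82 and 76 at 1765 and 1745 bp for Col9a2, and 32 and 28 at 2940 and 7140 bp for Col9a3. Col10a1, made by hypertrophic chondrocytes, had its nearest peaks 4171 bp away, with 39 and 20. No cartilage gene thus had a promoter site above 60 in either replicate.

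Other cartilage genes were not uniformly closed. Of 7 cartilage markers, 5 had a shared promoter site, with scores of 117 and 78 at Sox9, 114 and 97 at Matn3, 76 and 54 at Hapln1, 74 and 63 at Comp and 37 and 23 at Cnmd, while Acan and Matn1 had none. That count is near the 68.5% of all protein-coding genes. The Cnmd site lay 19910 bp inside the gene, and Cnmd had none at its 5′ end. Sox9 is also expressed in the distal lung epithelium, so it does not mark cartilage alone. Markers of lung epithelium (4 of 4), endothelium (3 of 3) and lung mesenchyme (3 of 3) had shared sites, for instance Sftpc with 94 and 65 and Tcf21 with 125 and 89. Of markers of other organs, 0 of 3 for skeletal muscle, 1 of 3 for heart, 1 of 3 for liver and 3 of 3 for the kidney glomerulus had a shared site. The muscle, heart and liver markers lie in CpG deciles 2 to 4, where 21.3% to 55.7% of all genes had one. The endothelial markers all lie in decile 4. The glomerulus sites scored 31 to 65. Nphs1 and the lung epithelial marker Nkx2-1 had no shared site at their 5′ ends, and their strongest sites lay 26115 and 1728 bp away. How many chondrocytes the samples held was not measured, and their part in the cartilage result was not tested.

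The replicates ranked the collagen promoters alike, with exceptions. The percentile of the strongest site differed by a median of 3.13 points between replicates over the 33 collagen genes, against 3.99 points over all genes. It differed by more than 15 points at 5 of the 33 (15.2%), against 3.66% of all genes. Col6a3 stood at percentile 45.8 in replicate 1 and 19.1 in replicate 2, and the site common to Col4a3 and Col4a4 at 50.8 and 27.7. Col26a1 went the other way, with 29.6 in replicate 1 and 49.7 in replicate 2, as did Col5a3 with 23.1 and 39.1. For these 5 genes the level can be read only as a range.

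Hotspots, the broader regions of enriched cutting that the authors deposited beside the peaks, gave the same 33 genes, where the share of all genes was 69.1%. Their −log10 q-value stops at 100. At the strongest promoter site this ceiling was reached at 30 collagen genes in replicate 1 and 20 in replicate 2 (90.9% and 60.6%), against 93.1% and 86.1% of all genes. Those hotspots had a median width of 768 and 434 bp at the collagen genes, against 1109 and 832 bp at all genes. Col5a1 had hotspots of 2049 and 1691 bp and Col23a1 of 1727 and 1658 bp, both at CpG-rich starts. Col14a1, with 230 and 172 bp and −log10 q-values of 2.09 and 1.89, and Col2a1, with 211 and 196 bp and 3.29 and 2.64, were among the narrowest and lowest. Collagen promoter hotspots were thus narrower by the median, and less often at the ceiling in replicate 2.

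Distal sites, taken as shared sites more than 1000 bp from any annotated TSS and within 50 kb of the gene, often include enhancers. All 41 collagen genes had at least 1, as did 89% of all protein-coding genes. The median was 15 sites, with a range of 2 to 54, against 8 for all genes. Collagen genes are long, with a median of 114 kb against 17.4 kb for all genes, and the window grows with the gene. In the longest of 4 equal bins of gene length, which holds 27 of the 41, the median was 16 for collagen genes and 14 for all genes. Per 100 kb of window the median was 7.59 for collagen genes and 5.95 for all genes. In the bin below it the medians were 9 for 10 collagen genes and 8 for all genes, and in the next 12.5 for 4 collagen genes and 7 for all genes. Protein-coding genes within the length range of the collagen genes had a median of 9. The part of length in the higher count was not tested.

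The counts were lowest in the cartilage class, with a median of 7. The medians were 14.5 in fibrillar, 16.5 in basement membrane, 15 in network, 13.5 in FACIT, 31 in transmembrane and 16 in the other genes. Gene length differed too, with medians of 27.2 kb in cartilage, 27.9 kb in network and 217 kb in transmembrane genes. Per 100 kb of window the medians were 11.7 in network, 9.05 in transmembrane, 8.77 in fibrillar and 7.5 in basement membrane genes. FACIT genes had 5.91, the other genes 5.43 and cartilage genes 4.57. Col4a2 had 54 distal sites and Col4a1 had 44, and 25 of these are common to them since the genes adjoin. Col25a1 had 51, Col23a1 36 and Col14a1 33. The fewest were 2 at Col10a1 and 5 at Col9a3, followed by 6 each at Col4a5, Col7a1, Col11a1 and Col20a1. Replicate 1 peaks were more numerous than replicate 2 peaks at most of these genes, for instance 90 and 57 at Col4a2 and 4 and 3 at Col10a1. The same 5 genes had the most distal peaks in each replicate, led by Col4a2 in replicate 1 and by Col25a1, with 58, in replicate 2.

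**Figure D4:**
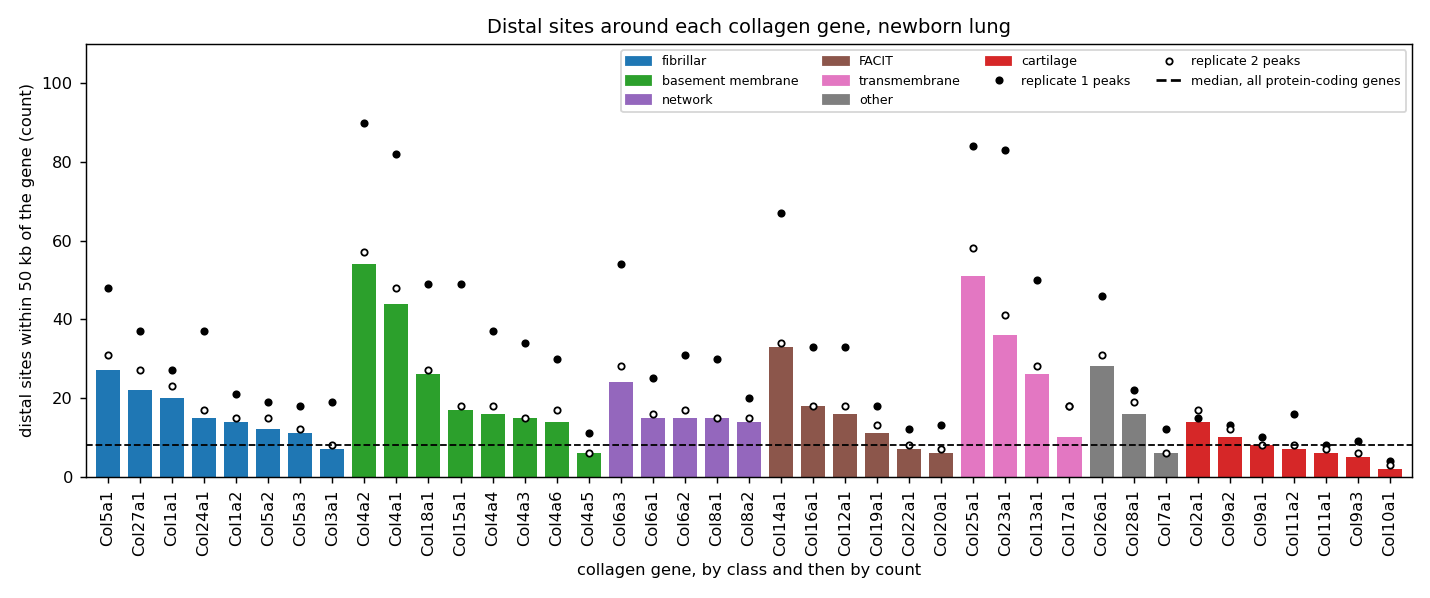
Number of distal sites within 50 kb of each collagen gene (bars, shared sites) with the distal peaks of replicate 1 (filled) and replicate 2 (open), by class, and a dashed line at the median of 8 shared sites of all protein-coding genes. Col4a2 and Col25a1 reach 54 and 51, and the cartilage genes run from 2 to 14.

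The 673 distinct distal sites of collagen genes had median scores of 68 and 46, against 63 and 43 for the 120866 distal sites of the genome. A mean percentile over 90 among distal sites was reached by 94 of the 673 (14%), against 9.15% of all distal sites. By class this was 23.5% of 81 sites at network genes, 15.9% of 126 at fibrillar genes, 15.7% of 153 at basement membrane genes, 12.2% of 123 at transmembrane genes, 11% of 91 at FACIT genes, 7.69% of 52 at cartilage genes and 4% of 50 at the other genes. These windows also hold neighbouring genes: of the 719 gene and site combinations, 361 lay in introns and 326 had a TSS of the collagen gene itself as their nearest. The network sites over percentile 90 were counted at Col6a1 (7), Col6a3 (5), Col6a2 (4) and Col8a2 (4), with 1 common to Col6a1 and Col6a2, and Col8a1 had 0 of its 15.

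The 3 distal sites with the highest mean percentile over both replicates are shown with that of Col1a2. They are chr4:126260876-126261025 (plus strand), 25.8 kb upstream of Col8a2, with scores of 128 and 104, chr10:76634116-76634285 (minus), 10.6 kb upstream of Col6a2, with 132 and 99, and chr8:11476796-11476945 (plus), downstream of Col4a2 and 164 kb from its start, with 128 and 101. The Col1a2 site, chr6:4488436-4488585 (plus), lies 16.3 kb upstream of the 5′ end. It is one of 3 strong sites there, at 16.3, 15.3 and 14.7 kb upstream with 113 and 88, 111 and 85, and 106 and 79. A far-upstream enhancer of mouse Col1a2 is known from transgenic studies, and these 3 sites were chosen after their values were seen. The nearest TSS to the first of them is that of Gm37883. The Col8a2 site lies nearest to a TSS of Trappc3, 1375 bp away, and the Col4a2 site to one of E230013L22Rik, 1059 bp away. The Col6a2 site has a TSS of Col6a2 as its nearest, at 10570 bp. Capitals mark TGANTCA (the AP-1 site), CAGCTG (an E-box), GGAATG (TEAD), AACAAT (SOX), TGTTTAC (forkhead) and the nuclear factor I palindrome on either strand.
Col8a2 distal: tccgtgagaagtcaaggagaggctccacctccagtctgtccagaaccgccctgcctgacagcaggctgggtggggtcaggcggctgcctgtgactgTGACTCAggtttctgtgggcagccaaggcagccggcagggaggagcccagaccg
Col6a2 distal: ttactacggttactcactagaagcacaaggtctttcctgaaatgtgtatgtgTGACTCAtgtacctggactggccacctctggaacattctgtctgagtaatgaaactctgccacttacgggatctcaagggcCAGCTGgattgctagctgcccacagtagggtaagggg
Col4a2 distal: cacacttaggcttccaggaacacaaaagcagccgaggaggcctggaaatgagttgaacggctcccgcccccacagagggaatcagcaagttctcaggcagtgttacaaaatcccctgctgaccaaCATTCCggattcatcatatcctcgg
Col1a2 distal: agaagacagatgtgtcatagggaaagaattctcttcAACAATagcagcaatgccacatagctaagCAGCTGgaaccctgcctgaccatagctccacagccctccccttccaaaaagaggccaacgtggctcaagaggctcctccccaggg
The Col8a2 and Col6a2 sites each hold 1 TGANTCA match, the Col6a2 and Col1a2 sites 1 CAGCTG match each, the Col4a2 site an inverted GGAATG and the Col1a2 site 1 AACAAT. Over 150 bp windows, TGANTCA was found in 13.8% of the 673 collagen distal sites and 10.3% of the 120866 of the genome. CAGCTG was in 15.8% of collagen distal sites and 14.6% of all, and GGAATG in 14.3% of collagen distal sites and 12.9% of all. AACAAT was in 7.13% of collagen distal sites and 7.71% of all, and TGTTTAC in 3.12% of collagen distal sites and 4.31% of all. CAGACA, the SMAD motif, was in 13.2% of collagen distal sites and 13.9% of all. The nuclear factor I palindrome was in 3 of the 673 (0.446%) and 0.119% of all, too few to read. None of these shares was tested.

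**Figure D5:**
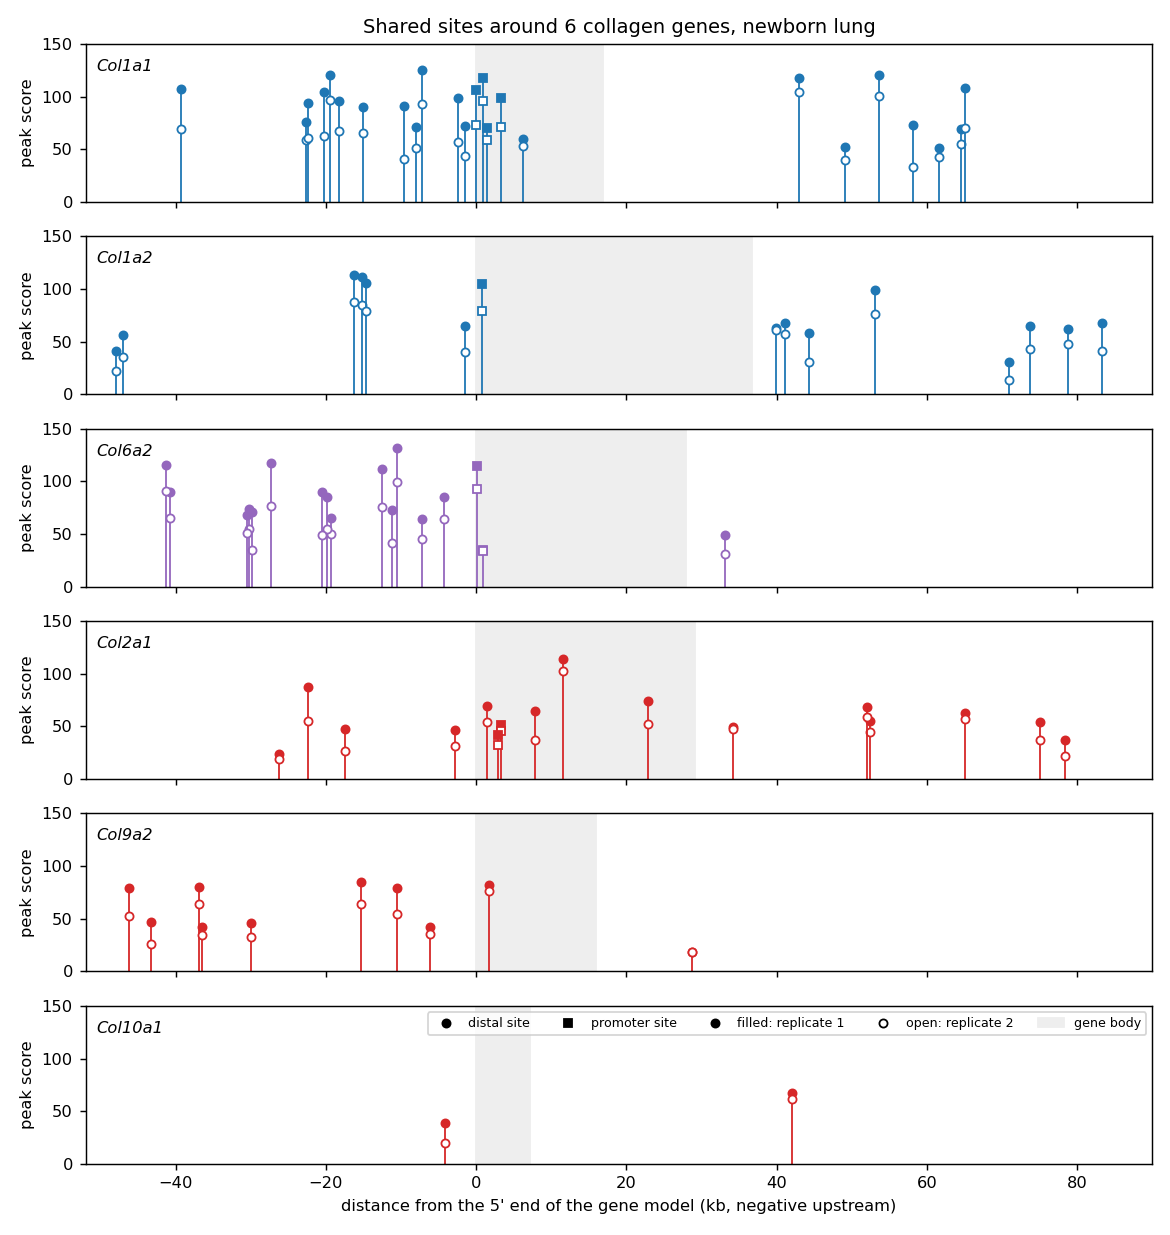
Shared sites around 6 collagen genes, with distance from the 5′ end in kb on the horizontal axis, and authors' score on the vertical axis (replicate 1 filled, replicate 2 open, circles for distal and squares for promoter sites, gene body in grey). Col1a2 has a group of strong sites between 14.7 and 16.3 kb upstream, Col2a1 its strongest site 11.6 kb inside the gene, and Col10a1 only 2 sites.

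Distal sites were open at cartilage genes without a peak at the 5′ end as well. Col2a1 had an intronic site 11.6 kb inside the gene with 114 and 103, above any site at its own starts in both replicates. Col9a1 had an intronic site at 9.53 kb with 108 and 76, and Col9a2 one with 82 and 76 just inside the gene, which is the nearest peak given above. In each of these genes the site has a TSS of the same gene as its nearest. Around Col1a1, sites 7.24 and 19.5 kb upstream scored 125 and 93, and 121 and 97. Col15a1 had an intronic site 85.9 kb in with 122 and 109, well above its promoter site in both replicates. Distal and promoter levels thus differed within genes of the matrix-forming classes and of the cartilage class alike.

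The genes that make collagen usable were open almost throughout. Of 42 genes for the modification, export, processing and crosslinking of collagen and for its receptors, 40 (95.2%) had a shared promoter site, against 68.5% of all protein-coding genes. Genes in the same CpG deciles as the 42 had one in 85%. All 17 genes of modification and folding had one, among them Colgalt1, which glycosylates hydroxylysine, with 144 and 134, P4hb, the common subunit of prolyl hydroxylase, with 144 and 130, and Serpinh1, the collagen chaperone, with 130 and 123. All 3 export genes and all 8 processing genes had one, with 142 and 125 at Sec23a and 121 and 112 at Adamts2, whose product removes the amino-terminal propeptide. Lox, which starts crosslinking, had 124 and 97, and Loxl2 was without a site in either replicate. Of 9 receptor genes, 8 had a site, including Ddr1 with 126 and 110 and Itga1 with 123 and 97, and the platelet receptor gene Gp6 had none. The promoters of Colgalt1, P4hb and Serpinh1 scored above every collagen promoter in both replicates. Other pathway genes were weak, for instance P4ha3 with 45 and 36, Itga11 with 56 and 37 and Lair1 with 34 and 32. P4ha2 and Lair1 had no shared site at the 5′ end, and their strongest sites lay 13015 and 36184 bp from it. The Ddr1 site lay 4021 bp from its 5′ end. Colgalt1 and P4hb lie in CpG deciles 9 and 10. Over all genes with a shared site, the median scores there were 129 and 110 in decile 9 and 128 and 109 in decile 10.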

How the data were processed

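DNase-seq was made from newborn mouse lung in 2 biological replicates. Peaks and hotspots were called on each library's own alignments to mm10, per the labels and the notes deposited with them. The aligner, caller, versions and depth are not given in the sources used here. Each deposited peak carries a score from the authors, and each deposited hotspot a −log10 q-value, at its ceiling of 100 in 39.5% and 36.2% of hotspots. Hotspots at this ceiling cannot be ranked among themselves, and whether the peak score has an upper limit is not given.

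Chromosomes 1 to 19 with X and Y were kept, and 26 and 23 duplicate peaks removed. Overlapping peaks were merged into 290376 sites. TSSs came from GENCODE on GRCm38, the assembly mm10 denotes, and promoter letters from RefSeq. The stretches between the paired starts of Col4a1/Col4a2 and Col4a4/Col4a3 were instead bounded by the GENCODE starts. CpGs were counted up to 500 bp from the 5′ end and genes split into 10 deciles. Motifs were searched on both strands of 150 bp windows. Python 3.11.15, numpy 2.4.6, pysam 0.24.0 and matplotlib 3.10.9 were used, and the merging was tested on simulated intervals. Values were given for the 3 strongest genes of each class, genes without a shared site, head-to-head pairs (starts within 2000 bp), the 5 with most and fewest distal sites, and those whose strongest site lay over 500 bp from the 5′ end. Others named were chosen after their values were seen. The members, classes and lists were chosen with earlier results of these data known. No p-value was computed, since the replicates form 1 group and genes are not replicates. Alternatives covered overlap, promoter width, starts, annotation, score, class scheme, hotspots, window and each replicate alone.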

Additional observations from a re-analysis of the deposited data

How the results depend on the processing

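Of 59 recomputed values, 50 stayed within 1.5 times the count, or within the spread between replicates. These limits are loose, so the tally says little about stability. Class counts were compared even where the class size changed, so 5 of 9 FACIT genes passed as unchanged. For distal sites the spread was the standard deviation of the 2 single-replicate medians, 7.07. A fall of the median from 15 to 9 in a 20 kb window therefore passed as well. The number of open collagen promoters was 26 to 36 under 9 alternatives, 33 to 36 with 1 replicate left out, and 30 where peaks had to overlap by 75 bp, which drops Col7a1, Col14a1 and Col24a1. With RefSeq transcripts it was 29, against 70% of all genes. With peaks above the median score it was 26 (63.4%), against 61.9%. With the 5′ end of the model only, the transmembrane count was 2, the count of other genes 1 and the cartilage count 1, since fewer starts are counted. With the cartilage genes placed by structure, type II and XI with fibrillar, IX with FACIT and X with network genes, the counts were 10 of 11 (90.9%), 5 of 9 (55.6%) and 4 of 6 (66.7%), so the contrast between classes depends on setting cartilage genes apart. With 1 replicate left out the cartilage count was 2 to 3. The median number of distal sites was 17 to 27 with 1 replicate left out (9 and 14 for all genes), 6 by nearest TSS (1 for all), 7 with peaks above the median score (4 for all) and 7.59 per 100 kb, each by construction another quantity. The median promoter value of 77, a mean of both scores, was 47 as a percentile and 100 as the hotspot value, which is its ceiling. No direction between collagen genes and all genes was tested. No paired analysis was possible because the replicates form 1 group. Unknown depth limits every count, and replicate 1 lists more peaks.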
